A study of Homo sapiens with 4 samples.

Results

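The glycolytic enzyme genes around GAPDH are a set of 10 genes that encode enzymes of the cytoplasmic route from glucose to lactate. They are GPI, PFKP, ALDOA, TPI1, GAPDH, PGK1, PGAM1, ENO1, PKM and LDHA. The set was chosen by function. Its members were found on the arrays as the probes, controls left out, whose listed transcript identifier maps to a gene of the set. A matched probe was found for 9 of the 10 genes, with 13 of the 50599 probes and 31 of the 58717 spots of each array. No probe was matched to ALDOA, which encodes aldolase A, and this gene is only named here. All 9 genes passed the filter on dim probes, through probes detected on all 4 arrays, among the 13039 genes kept.

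RNA was measured in KYSE180 cells, an established line from a human esophageal squamous cell carcinoma (ESCC). TIA1 is an RNA-binding protein, and in ribonucleoprotein immunoprecipitation (RIP) an antibody pulls a protein down together with its RNA. The TIA1 RIP group comprised 2 arrays (replicates 1 and 2) with RNA that an anti-TIA1 antibody brought down from cytoplasmic lysates, and the total RNA group comprised 2 arrays (replicates 1 and 2) with unprecipitated RNA of the same line. No treatment separated the groups, and 0.2 μg RNA was labelled for each single-colour Agilent array. The sources used here do not say that replicates came from separate cultures, so p-values measure only the spread between these arrays, which may be technical. RNA from IgG immunoprecipitates was not analysed here, and RNA held by TIA1 and RNA carried along by the antibody beads cannot be told apart. The study took enrichment of more than 2.5-fold relative to GAPDH, on arrays and in RIP-seq alike, as the mark of a putative TIA1-bound transcript; the RIP-seq reads were not analysed here, so the counts below rest on the arrays alone. The question here was how the GAPDH transcript and those of its neighbours in glycolysis lay between immunoprecipitate and total RNA, and what the count of enriched genes becomes when another of these genes is the reference.

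Glycolysis splits glucose into pyruvate in the cytoplasm and yields ATP and NADH, and LDHA turns the pyruvate into lactate while restoring NAD+. Many tumour cells, squamous carcinomas included, run this route at a high rate even with oxygen present, and its enzymes are among the most abundant proteins of a proliferating cell. TIA1 binds U-rich stretches of transcripts, often in 3′ untranslated regions (UTRs), and acts on splicing in the nucleus and on translation in the cytoplasm. Because GAPDH mRNA is abundant and found in nearly all cells, it is widely used as a reference in expression measurements.

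The arrays were not alike. Total RNA replicate 2 stood apart, with a 75th percentile of its signals of 69.9 where the other arrays had 714 to 1514, and with 32.2% of its spots well above background where the others had 45.8% to 48.4%. Its log2 values correlated with those of total RNA replicate 1 at r = 0.733 (Pearson, across genes, which are not independent replicates), while the TIA1 RIP arrays correlated at r = 0.932. TIA1 RIP replicate 1 was as close to total RNA replicate 1 (r = 0.936) as to the other TIA1 RIP array. All 9 squamous epithelial markers examined, KRT5 and TP63 among them, were detected on all 4 arrays, and 5 of 8 markers of other cell types were not kept. The other 3, CD68, PTPRC and COL1A1, were kept. CD68 was detected on all 4 arrays with log2 values of 2.12 to 3.35, above TP63 at 0.08 to 0.90. Values of the members are therefore given array by array, and calls also without a total RNA array where leaving it out changes them.

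The 3′ UTRs of the set differed in length and in T content, the DNA letter for the U that TIA1 is known to bind. In the canonical GENCODE transcripts on GRCh37, the GAPDH 3′ UTR had 201 bases with 15.4% T, and the PGK1 3′ UTR had 3465 bases with 32.3% T. The other measured members lay from 223 bases in PFKP to 2377 in GPI, and from 21.4% T in PKM to 31.8% in PFKP. The most T-rich stretch of 30 bases of the 3′ UTR is printed for 4 genes on which the comparisons turn, the reference, the member nearest to it and the pair of members highest relative to it. It is given 5′ to 3′ on the transcript strand, with runs of 3 or more T in capitals.
GAPDH: ttgtcatgtaccatcaataaagtaccctgt
ENO1: gtcgtgtaattggcccaagtcattgTTTTT
PGK1: tattgttcacttcTTTTTTTTTTaTTTTTT
PGAM1: aaTTTcgttatgtgttaaTTTacTTTTatt
These stretches hold 10, 13, 23 and 18 T and lie in the last exon of each gene. Among the measured members the stretch of GPI held the most T, with 24, and that of LDHA held 16. The GAPDH stretch is at chr12:6647499-6647528 on the plus strand in exon 9, the ENO1 stretch at chr1:8921184-8921213 on the minus strand in exon 12, the PGK1 stretch at chrX:77382131-77382160 on the plus strand in exon 11, and the PGAM1 stretch at chr10:99192817-99192846 on the plus strand in exon 4. The run TTTTT occurred on the transcript strand in the last 200 bases of the 3′ UTR of ENO1, LDHA, TPI1, PGAM1 and PFKP, and was not found in that window of GAPDH, PGK1, PKM and GPI. Over the whole 3′ UTR, counted by start position, it occurred 71 times in GPI, 28 in PGK1, 7 in LDHA and 2 in PGAM1, and not at all in GAPDH and PKM. In the shorter window it was found in 53.2% of the 10330 kept genes with a 3′ UTR at least that long. The AU-rich pentamer ATTTA, which cannot overlap TTTTT, was found in that window of GPI alone among the measured members and in 38.7% of the same genes. T made up 15.5% of that window in GAPDH and 21.5% in LDHA, and the median over the 10330 genes was 32.5% (10th percentile 22.0%). A match is a description of the sequence and not a binding site.

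GAPDH, which oxidizes glyceraldehyde 3-phosphate, was lower in both TIA1 RIP arrays than in both total RNA arrays. On the log2 scale relative to the 75th percentile of its array, its signal was 6.49 in TIA1 RIP replicate 1, 6.69 in TIA1 RIP replicate 2, 7.67 in total RNA replicate 1 and 9.63 in total RNA replicate 2. The TIA1 RIP arrays lay close together, while the total RNA arrays lay further from each other than the nearer of them lay from the TIA1 RIP arrays. The difference between the group means was -2.06 (SE 0.93, 95% interval -4.25 to 0.13), which is 4.17-fold lower in TIA1 RIP and did not pass the test (limma, adjusted p = 0.776). Across all 13039 genes, 5.53% had a lower ratio than GAPDH. Its single probe was printed as 10 spots, and the SD over the spots of an array was between 0.03 and 0.07 on the log2 scale. Without total RNA replicate 1, which leaves the array that stood apart as the only total RNA array, the difference became -3.04. Without total RNA replicate 2 it was -1.08, and after quantile normalization of all 4 arrays it was -0.49.

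The members of the upper part of the pathway were GPI, PFKP and TPI1. GPI, which interconverts glucose 6-phosphate and fructose 6-phosphate, had log2 scaled signals of 6.14 and 6.41 in TIA1 RIP replicates 1 and 2 and of 6.49 and 8.49 in total RNA replicates 1 and 2. Only total RNA replicate 2 stood clearly above the rest, although the groups did not overlap. PFKP, the platelet-type phosphofructokinase of the committed step, stood at 4.30 and 3.88 in TIA1 RIP and at 4.54 and 5.37 in total RNA. The groups did not overlap, and the nearest arrays of the groups were closer to each other than the TIA1 RIP arrays were. TPI1, which interconverts the triose phosphates, stood at 6.38 and 6.52 in TIA1 RIP and at 6.80 and 8.59 in total RNA. Here too total RNA replicate 2 was far above the other 3 arrays. The differences between the group means were -1.21 (SE 0.93) for GPI, -0.86 (SE 0.81) for PFKP and -1.24 (SE 0.90) for TPI1, with adjusted p of 0.778, 0.802 and 0.776 from limma.

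The members after GAPDH, in the part of the pathway that returns ATP, did not share a pattern. PGK1, the first enzyme of glycolysis to make ATP, had log2 scaled signals of 6.75 and 7.27 in TIA1 RIP and of 6.51 and 7.67 in total RNA. The total RNA arrays lay on either side of the TIA1 RIP arrays, and the difference between the means was -0.08 (SE 0.84, 95% interval -2.05 to 1.90). PGAM1, a phosphoglycerate mutase, stood at 3.93 and 3.80 in TIA1 RIP and at 3.87 and 3.99 in total RNA, so all 4 arrays lay close together with the groups overlapping. Its difference was -0.06 (SE 0.77, 95% interval -1.87 to 1.75).

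ENO1, the enolase that forms phosphoenolpyruvate, was the member closest to GAPDH in its ratio between the groups. Its log2 scaled signal was 5.10 and 5.40 in TIA1 RIP and 6.38 and 7.76 in total RNA. Both TIA1 RIP arrays lay below both total RNA arrays, and the difference was -1.82 (SE 0.85, limma, adjusted p = 0.776), or 3.54-fold lower in TIA1 RIP. PKM, the pyruvate kinase whose splicing gives the M1 and M2 forms, stood at 5.65 and 5.29 in TIA1 RIP and at 5.73 and 6.90 in total RNA. Its groups did not overlap, but the first array of each group almost met. LDHA stood at 4.64 and 4.81 in TIA1 RIP and at 5.30 and 4.86 in total RNA, the only member with a higher value in total RNA replicate 1 than in replicate 2. Only a narrow gap, between the replicate 2 arrays, separated the groups. The differences were -0.85 (SE 0.83) for PKM and -0.36 (SE 0.78) for LDHA.

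**Figure D1:**
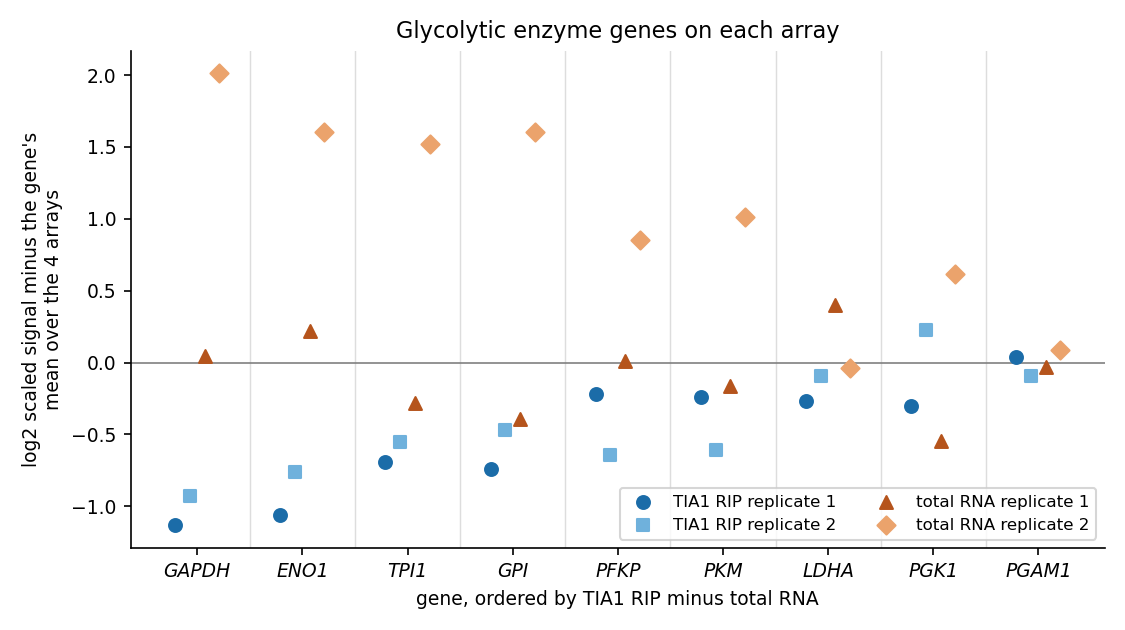
Log2 scaled signal of each of the 9 genes on each of the 4 arrays, minus the gene's mean over the 4 arrays, with genes ordered by the difference between TIA1 RIP and total RNA. Each point is 1 array. Total RNA replicate 2 is the highest array for 8 of the 9 genes, by far for GAPDH, ENO1, TPI1 and GPI, and the 4 arrays of PGAM1 nearly coincide.

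None of the 9 genes passed the adjusted threshold of 0.05 in limma, and none had an unadjusted p under 0.05. Of all 13039 genes, 0.0% passed it, and 4.02% were lower in TIA1 RIP at an unadjusted p under 0.05. The group means were lower in TIA1 RIP for 9 of the 9 genes, as they were for 51.4% of all genes. Both TIA1 RIP arrays lay below both total RNA arrays for 7 of the 9, the exceptions being PGK1 and PGAM1, and for 21.7% of all genes. The median difference over the 9 genes was -0.86, beside -0.04 over all genes. Among all genes detected on all 4 arrays, as the 9 members were, 5824 were lower in TIA1 RIP and 3413 higher. The median difference over those genes was -0.35. Without total RNA replicate 1, GAPDH, ENO1, GPI and TPI1 passed the adjusted threshold, all lower in TIA1 RIP, as did 15.7% of all genes in that direction; this fit assumes that the lone total RNA array varies as the TIA1 RIP arrays do. Without total RNA replicate 2 instead, GAPDH differed by -1.08, ENO1 by -1.13, GPI by -0.22 and TPI1 by -0.34. Scaled to the spike-in RNAs of the labelling kit, every gene moved up by 3.86 on the log2 scale, so that GAPDH differed by 1.80 and every other member also lay above 0, with no member called. The order of the members and their values relative to GAPDH are the same on both scales.

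Relative to GAPDH on the same array, a ratio in which the scaling of whole arrays cancels, the members ranged from near GAPDH to about the median of all genes. PGAM1 was 4.0-fold above GAPDH in TIA1 RIP over total RNA on the means (95% interval 0.726 to 22.1), PGK1 3.96-fold (1.03 to 15.1) and LDHA 3.25-fold (0.459 to 23.0). These 3 of the 8 genes lay past 2.5-fold, as did 72.4% of all genes. PKM at 2.32-fold and PFKP at 2.29-fold lay below that limit, GPI at 1.80-fold and TPI1 at 1.76-fold further below, and ENO1 at 1.18-fold stood next to GAPDH. None passed the adjusted threshold in limma, with adjusted p from 0.221 for PGK1 to 0.776 for ENO1. PGK1 alone had an unadjusted p under 0.05 in limma, a limit that 19.5% of all genes passed above GAPDH. The intervals of neighbours in this order overlap widely, and differences between neighbours were not tested.

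PGK1 was the only member past 2.5-fold in every pair of arrays. Its fold above GAPDH was 2.68 and 4.68 in TIA1 RIP replicate 1 over total RNA replicates 1 and 2, and 3.35 and 5.84 in TIA1 RIP replicate 2 over the same arrays. LDHA gave 1.43 and 7.57 with TIA1 RIP replicate 1 and 1.40 and 7.40 with TIA1 RIP replicate 2. PGAM1 gave 2.38 and 8.52, then 1.88 and 6.75. For both of these genes the choice of total RNA array decided on which side of the limit they lay, and the choice of TIA1 RIP array did not. GPI and TPI1 stayed between 1.63-fold and 1.91-fold in all 4 pairs, the narrowest ranges of the set, and ENO1 between 0.936-fold and 1.49-fold, on both sides of GAPDH.

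With total RNA replicate 1 as the denominator, PGK1 alone was past 2.5-fold, both for TIA1 RIP replicate 1 (46.0% of all genes) and for TIA1 RIP replicate 2 (40.0%). With total RNA replicate 2, 5 of the 8 members were past it, PGK1, PKM, LDHA, PGAM1 and PFKP, both for TIA1 RIP replicate 1 (76.7% of all genes) and for TIA1 RIP replicate 2 (77.7%). In each pair the share of members past the limit was below the share of all genes. Without total RNA replicate 1, the same 5 members lay above GAPDH past the adjusted threshold in limma, as did 73.1% of all genes, with LDHA at a log2 difference of 2.90 (adjusted p = 0.00245) and PGAM1 at 2.92 (adjusted p = 0.00257). Over all alternatives the adjusted p ran from 0.00245 to 0.742 for LDHA and from 0.00257 to 0.674 for PGAM1. Without total RNA replicate 2, LDHA stood at 0.50 on the log2 scale above GAPDH and 1 member, PGK1, was past 2.5-fold (42.3% of all genes). Without TIA1 RIP replicate 2, 5 of the 8 members were past it (72.6% of all genes).

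**Figure D2:**
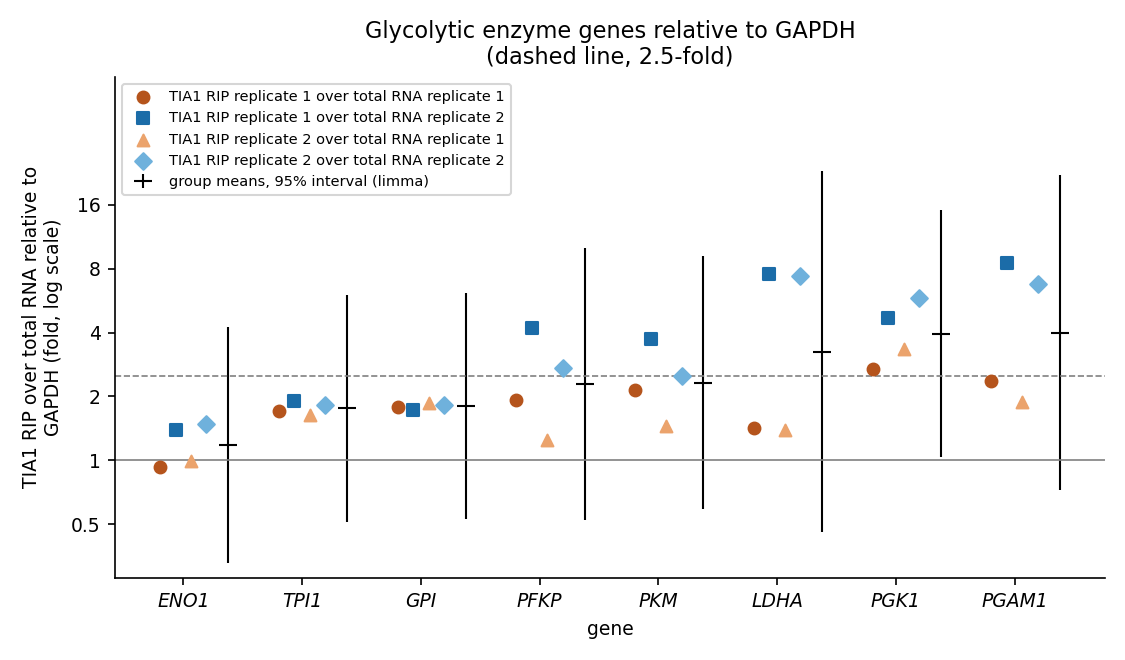
Ratio of TIA1 RIP to total RNA relative to that of GAPDH (fold, log scale) for the other 8 genes in each of the 4 pairs of arrays, with the value on the group means and its 95% interval from limma in black; the solid line is GAPDH and the dashed line 2.5-fold. The pairs with total RNA replicate 2 are far above those with replicate 1 for LDHA and PGAM1, nearly level for GPI and TPI1, and all past the dashed line for PGK1.

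Each member was then put in the place of GAPDH. On the means, the order of the counts is fixed by each reference's own ratio between the groups, given above. Of the 13038 other genes, 9445 (72.4%) lay more than 2.5-fold above GAPDH on the means and 211 more than 2.5-fold below it. With ENO1 as the reference, 8566 genes (65.7%) lay above, the count nearest to that with GAPDH. The triose and hexose isomerases gave lower counts, 5974 (45.8%) with TPI1 and 5878 (45.1%) with GPI. PFKP gave 4360 (33.4%) and PKM 4287 (32.9%). LDHA gave 2539 (19.5%), PGK1 1738 (13.3%) and PGAM1 1698 (13.0%). The count thus ranged from 1698 to 9445 over references of the same pathway, and GAPDH gave the highest of the 9 on the means. The median over the other 8 members was 4323.5 genes. The top rank of GAPDH was not kept in every setting. After quantile normalization of the arrays, ENO1 gave 4920 genes and GAPDH 3419. Without total RNA replicate 2, ENO1 also gave more genes than GAPDH. With the trend of GC content removed from each array, the references took another order, given below.

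Counts that had to hold in all 4 pairs of arrays were lower and followed a similar order. With GAPDH, 3420 genes lay past 2.5-fold in all 4 pairs, and with ENO1 3061. The other members gave between 304 and 692, except PGAM1 with 93 and PGK1 with 47. Against total RNA replicate 1, ENO1 gave higher counts than GAPDH. They were 6637 against 5995 in TIA1 RIP replicate 1 and 5229 against 5212 in TIA1 RIP replicate 2. Against total RNA replicate 2, GAPDH gave the higher count with either TIA1 RIP array. The 2 total RNA arrays gave different counts for the same reference. PGK1 as the reference left 1.93% and 4.43% of genes past the limit against total RNA replicate 1, and 38.2% and 29.0% against replicate 2. LDHA was the member least dependent on the array, with 21.2% to 27.5% in the 4 pairs.

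No gene passed the adjusted threshold in limma with any of the 9 references. At an unadjusted p under 0.05 and past 2.5-fold, 3095 genes lay above ENO1, 2538 above GAPDH, 688 above PFKP and 53 above PGK1, with the other members between 156 and 554. The lowest adjusted p was 0.221 with GAPDH, 0.199 with ENO1 and 0.748 with LDHA. These counts share the same 4 arrays and are no independent evidence of each other. After quantile normalization of the arrays, 3419 genes lay past 2.5-fold above GAPDH, and without total RNA replicate 2, 5510 did.

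**Figure D3:**
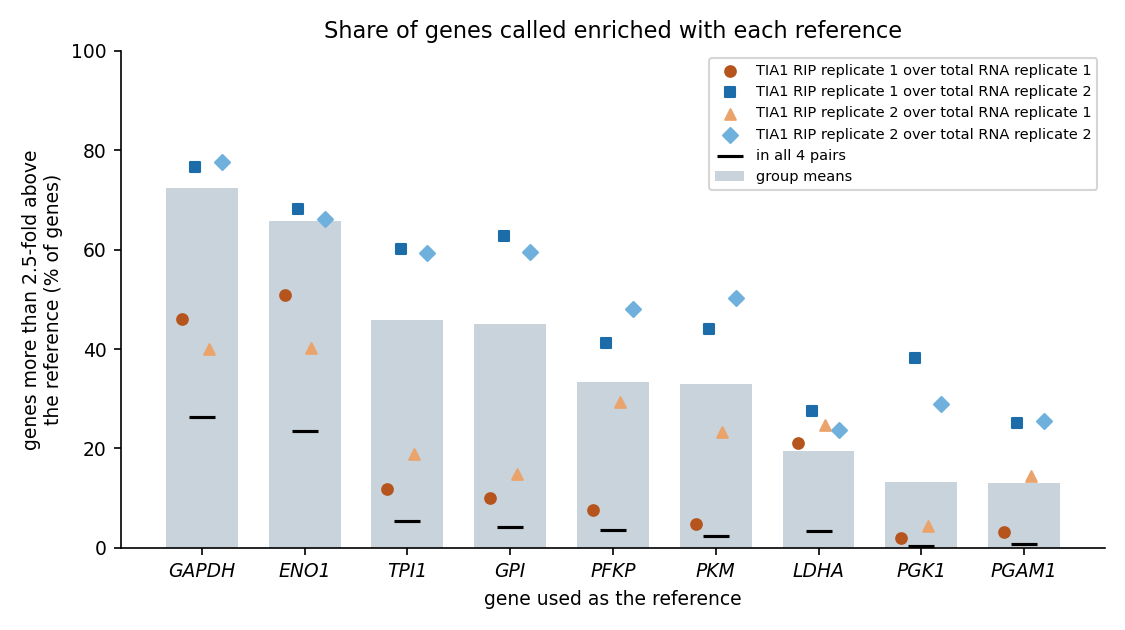
Share of the other 13038 genes more than 2.5-fold above the reference (percent) with each of the 9 genes as the reference, on the group means (bars), in each of the 4 pairs of arrays (points) and in all 4 pairs at once (black marks). The bars fall from 72.4% with GAPDH to 13.0% with PGAM1, and the pairs with total RNA replicate 2 lie above those with replicate 1 for every reference but LDHA, whose points lie within a narrow range.

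The gap between the total RNA arrays also differed among the members. Total RNA replicate 1 minus replicate 2, on the log2 scaled signal, was -2.0 for GPI, -1.96 for GAPDH, -1.80 for TPI1, -1.39 for ENO1, -1.17 for PKM, -1.16 for PGK1, -0.84 for PFKP, -0.12 for PGAM1 and 0.44 for LDHA. The median was -1.17 over the set and -0.38 over all genes. Over all genes the gap moved with the GC content of the transcripts: the median over deciles of GC content ran from 2.06 in the lowest to -2.09 in the highest, and that of TIA1 RIP minus total RNA from 1.25 to -1.0. GAPDH (56.1% GC), ENO1 (54.4%), TPI1 (54.0%) and GPI (53.1%) lay in decile 7, where the median gap was -0.91. LDHA (41.8%) and PGK1 (42.8%) lay in decile 3, where it was 1.40. PKM (56.6%) and PFKP (57.8%) lay in decile 8, where it was -1.36, and PGAM1 (52.7%) in decile 6, where it was -0.38. With the GC trend removed from each array, GAPDH differed by -1.51 between TIA1 RIP and total RNA (limma, adjusted p = 0.624), LDHA stood 0.37 and PGK1 0.76 above GAPDH on the log2 scale, and PGAM1 alone was past 2.5-fold. In that setting 6960 genes (60.0%) lay past 2.5-fold above GAPDH, 6317 above ENO1, 4991 above LDHA, 3578 above GPI and 3371 above TPI1. PGK1 then gave 3017, PKM 1212, PFKP 1070 and PGAM1 333, so the references took another order.

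**Figure D4:**
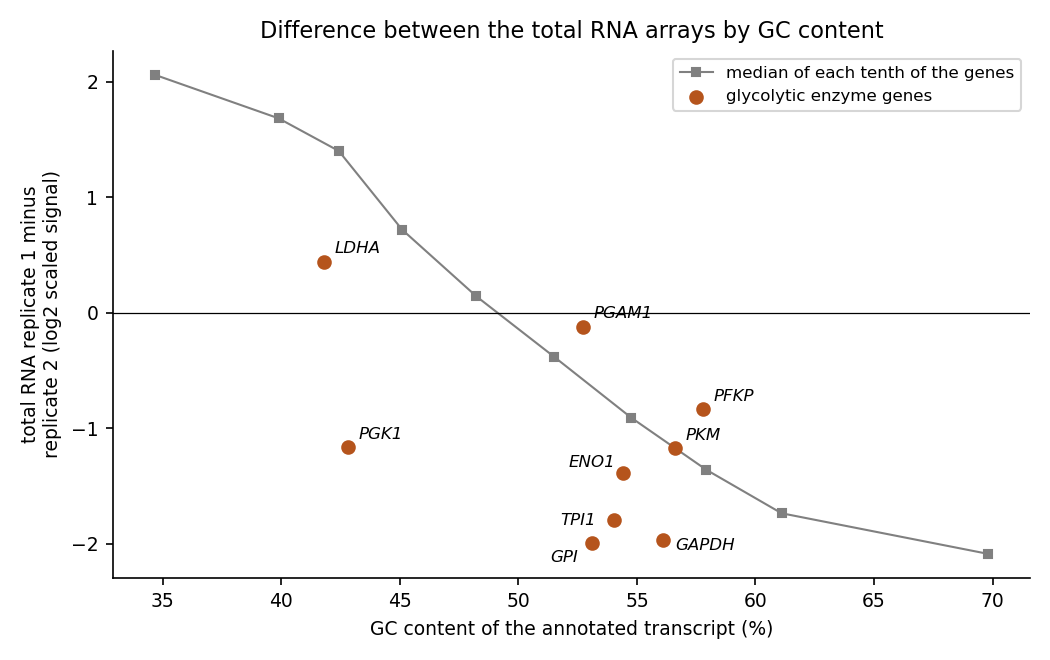
Difference between the total RNA arrays (log2 scaled signal, replicate 1 minus replicate 2) against the GC content of the annotated transcript (percent) for the 9 genes (labelled points) and as the median of each decile of the 11595 genes with an annotated transcript (squares). The squares fall from 2.06 to -2.09. GAPDH, GPI, TPI1, ENO1, LDHA and PGK1 lie below the line, PGK1 the furthest. PKM lies about on the line, and PFKP and PGAM1 lie above it.

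Probes of the same gene did not always move alike. The pair of TPI1 probes gave TIA1 RIP minus total RNA of -1.20 and -1.28, and the pair of PFKP probes -0.97 and -0.76. The LDHA probes gave -0.71 and -0.01, and against total RNA replicate 2 they went apart, with -0.77 and 0.32 in TIA1 RIP replicate 1. The PGAM1 probes gave -0.42 and 0.30, on both sides of 0, so its mean near 0 rests on probes that disagree. PGAM4, a gene near-identical to PGAM1, had a difference of -1.15 at its own probe. Several of these genes have processed pseudogenes close in sequence, and how much signal such copies add to each probe was not tested. The brightest probe of each gene left LDHA 1.35 above GAPDH on the log2 scale, against 1.70 for the mean of its probes. As references in that setting, LDHA gave 3857 genes past 2.5-fold and PGAM1 2847, against 2539 and 1698 with the mean of the probes.

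Likeness to GAPDH was measured as the root mean square distance of the log2 signals over the 4 arrays, after each gene's mean was removed, among genes detected on all 4 arrays. The nearest member was ENO1 at 0.24, which 2.07% of the other 9236 genes undercut. TPI1 followed at 0.41 and GPI at 0.42, then PKM at 0.70 and PFKP at 0.75. PGK1 at 1.04, PGAM1 at 1.20 and LDHA at 1.20 lay about where the middle of all genes lay, with 47.6%, 57.9% and 58.1% of genes closer. The 5 genes most like GAPDH were RPS21, POLR2I, ARHGEF17, MAP2K2 and FAM74A4, at distances from 0.04 to 0.08. RPS21, a protein of the small ribosomal subunit, stood at 6.91, 7.08, 8.10 and 10.13 on TIA1 RIP replicates 1 and 2 and total RNA replicates 1 and 2.

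The other isoenzymes of glycolysis took both directions. Of 22 listed genes, 13 were kept, 4 were higher and 9 lower in TIA1 RIP on the means, and none passed the test in limma in either direction. Their median difference was -0.34, beside -0.04 over all genes, of which 51.4% were lower. PFKL, the liver-type phosphofructokinase, was the lowest of them, at -0.33 and 0.70 in TIA1 RIP and 1.19 and 5.04 in total RNA. Total RNA replicate 2 was far above the other arrays, which spread less. BPGM, which makes 2,3-bisphosphoglycerate, was the highest, at 2.36 and 2.18 in TIA1 RIP and 1.64 and 0.02 in total RNA, 11.3-fold above GAPDH. LDHB, the partner of LDHA in lactate dehydrogenase, stood at 6.03 and 5.68 in TIA1 RIP and 6.81 and 4.97 in total RNA, and like LDHA it was higher in total RNA replicate 1 than in replicate 2. Relative to GAPDH, 8 of the 12 detected on all 4 arrays lay past 2.5-fold, beside 64.2% of all genes so detected.

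Around the pathway, the transporters and branches were measured in smaller numbers, and none of their genes passed the test in either direction. Of the transporters of glucose and lactate, 4 of 8 were kept, with a median difference of -0.43. SLC2A1, the main glucose transporter GLUT1, stood at 5.56 and 5.66 in TIA1 RIP and 5.82 and 7.87 in total RNA. It was 1.77-fold above GAPDH, level with TPI1 and GPI. Of the genes for entry of pyruvate into mitochondria, 13 of 14 were kept, but 5 of these (DLAT, DLD, PDHX, PDK1 and PDP2) were not detected on every array, so their values lean on a signal near background and on the filter that kept them. Of the 8 detected on all 4 arrays, 6 were higher and 2 lower in TIA1 RIP on the means, with a median difference of 0.38. Among all genes so detected, 3413 were higher and 5824 lower, with a median of -0.35. PDHB, a subunit of pyruvate dehydrogenase, stood at 2.84 and 2.85 in TIA1 RIP and 2.77 and 1.91 in total RNA. PC, pyruvate carboxylase, was the lowest of that list, at 1.22 and 1.55 against 2.18 and 4.90. Of the pentose phosphate pathway, 7 of 8 genes were kept with a median of -1.0, and TKT, transketolase, stood at 6.34 and 6.35 against 6.77 and 8.04. The regulators of the fructose bisphosphate step, of which 3 of 7 were kept, had a median of -0.36. Of the genes detected on all 4 arrays, 7 of 8 of pyruvate entry, 3 of 7 of the pentose phosphate pathway, 3 of 3 regulators and 2 of 4 transporters lay past 2.5-fold above GAPDH, beside 64.2% of all genes so detected.

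Genes often used as references in other work spanned a wider range than the glycolytic set. All 12 were kept. With ACTB, the cytoskeletal actin, as the reference, 8585 genes lay past 2.5-fold. With HPRT1, a purine salvage enzyme, 50 genes did, with TFRC 51 and with B2M 113. The median over the 12 was 3705.5. ACTB was 1.18-fold above GAPDH on the means, close to ENO1, and HPRT1 12.5-fold. PPIA, the prolyl isomerase cyclophilin A, gave 1518 genes (11.6%), near the 1738 of PGK1 and the 1698 of PGAM1. Against the median over all genes, 1653 genes (12.7%) lay past 2.5-fold.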

How the data were processed

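The signals of the 4 single-colour arrays had been extracted from the scans with Agilent Feature Extraction 10.7.1.1. The deposited files give a fluorescence intensity for each spot, on a linear scale with the background already subtracted and with no normalization between arrays. Spots marked in the deposited files as uneven or deviant, 299 to 382 on each array, were left out, and none was saturated. Condition and replicate number came from the sample labels.

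Intensities were taken to log2, scaled by subtracting each array's 75th percentile, and averaged over the spots of each probe. A probe counted as detected where 0.5 or more of its spots stood well above background, and it was kept when both arrays of a group detected it. Symbols were assigned through RefSeq accessions (a GRCh38 table, for names only) and GENCODE v44 transcripts on GRCh37, the build in the file headers, to 34510 probes (68.2%). Averaging the probes of each symbol left 13039 genes. The groups were compared over all genes with limma 3.58.1 in R 4.3.3 (lmFit, eBayes), also after subtraction of a reference gene, with two-sided p-values adjusted by Benjamini-Hochberg. With 2 arrays in each group, precision is low. The fit was tested on simulated data with the same spread on every array. How the fit behaves at the spread of these arrays, with the wider gap between the total RNA arrays, was not tested. 3′ UTR sequences were read from the GENCODE transcripts and checked against the genome. Figures were drawn with matplotlib 3.10.9.

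Genes named are the 10 members, genes of the lists of glucose metabolism, reference genes and markers, and the 5 genes most like GAPDH. A single listed gene is not reported here. The members and lists were chosen with earlier results of these data known. Alternatives covered background, scaling, filters, probes, floor, GC content, replicate number, fold and each array left out.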

Additional observations from a re-analysis of the deposited data

How the results depend on the processing

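Over 19 settings, 504 alternative values of 32 results were computed; 394 kept their direction and their side of the threshold, or lay within 1.5 times of the count. The labels do not say what a shared replicate number marks, and 2 pairs are too few to settle it (deviations of same-numbered arrays correlated at 0.453). With the replicate block, limma called 356 genes and no member between TIA1 RIP and total RNA (GAPDH, adjusted p = 0.240), and after removal of the GC trend with the block it called 1 member relative to GAPDH, PGAM1 (1.76, adjusted p = 0.0213), with 52.9% of all genes called above GAPDH.

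The sign of TIA1 RIP minus total RNA changed with some of the scales. With the median of all genes as the scale it did not, as every gene moved up by only 0.030. With the E1A spike-ins, the log2 difference was 1.80 for GAPDH, 2.04 for ENO1, 3.78 for PGK1, 3.01 for PKM, 3.50 for LDHA, 2.62 for TPI1, 3.80 for PGAM1, 2.65 for GPI and 3.0 for PFKP. After quantile normalization it was 1.30 for PGK1, 0.035 for PKM, 0.25 for LDHA, 0.12 for TPI1, 0.40 for PGAM1 and 0.047 for GPI. It stayed negative at -0.49 for GAPDH, -0.87 for ENO1 and -0.32 for PFKP, and ENO1 stood at -0.38 relative to GAPDH. With normexp it was 0.42 for PGK1, 0.10 for LDHA and 0.34 for PGAM1, and with the GC trend removed 0.24 for PGAM1, with and without the block.

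With arrays left out, the difference of GAPDH ran from -3.04 to -1.08, that of PGK1 from -0.66 to 0.51, with a change of sign without TIA1 RIP replicate 1 (0.19) and without total RNA replicate 2, and that of PGAM1 from -0.12 to 0.0074, with a change of sign without TIA1 RIP replicate 2 and without total RNA replicate 2 (0.0024). ENO1 relative to GAPDH ran from -0.050, without total RNA replicate 2, to 0.53. The members called ran from 0 to 4 between the groups and from 0 to 5 relative to GAPDH, all genes called from 0 to 3900, members past 2.5-fold from 1 to 5, genes past 2.5-fold above GAPDH from 5510 to 10107, and the median count over the other references from 1738 to 5941. Genes past 2.5-fold above GAPDH numbered 3419 after quantile normalization and 5932 with probes detected on all 4 arrays; the median over the other references was then 1647 and 2034.5, and 1691 with normexp. Members past the fold were 1 after quantile normalization, 1 with the GC trend removed and 5 at a fold of 2. The cause of these changes was not tested. The low signal of total RNA replicate 2 limits what the total RNA values of dim genes can show.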
